A study of Mus musculus with 12 samples.

Results

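Major urinary proteins are small lipocalins that the mouse liver secretes into the blood and that pass into the urine, where they carry volatile scent signals. They are encoded by a cluster of closely related Mup genes, and their liver transcripts are abundant in adult males, where pulses of growth hormone acting through Stat5b maintain them. Mup20 encodes darcin, the member known as a male pheromone in its own right. The 9 genes described here are Mup1, Mup3, Mup7, Mup11, Mup12, Mup17, Mup20, Mup21 and the pseudogene Mup-ps20. They were taken by symbol from the 52636 genes in the count tables, which hold 49 genes with a Mup symbol, and the other 40 served for comparison. The 9 genes held between 94.5% and 98.2% of all Mup counts in each library.

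Livers came from male C57Bl/6J mice at 16 weeks of age, 6 offspring of mothers on a vitamin D deficient diet (VDD-F1) and 6 offspring of mothers on a vitamin D sufficient diet (VDS-F1). The diets were given to the mothers before mating and through pregnancy, the deficient mothers also received calcium gluconate, and all mothers were on the sufficient diet after delivery. Each mouse gave 1 library of total RNA from liver tissue after removal of ribosomal RNA. The mice are numbered 1 to 6 in each group, and which mice were littermates was not used here. Bulk libraries cannot tell fewer hepatocytes apart from less RNA per hepatocyte.

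Between 14275793 and 20815066 fragments per library were counted on genes in the sense direction, and levels are given as CPM, the count scaled to a fixed total per library. Only fragments that align to 1 place were counted, while 6.69% to 8.92% of fragments aligned to several places and were left out. Between 23.5% (VDD6) and 37.9% (VDS5) of fragments were recorded as unmapped. A liver weight was recorded in the study's supplement for 7 of the mice (VDD4, VDD5, VDD6 and VDS3 to VDS6) and not for the other 5, and the values below are given by these sets of mice as well. VDD2 stood apart from the other libraries. Its summed level of the 5 cholangiocyte markers was 131 CPM where the other 11 mice had 23.7 to 72.3 CPM. That of the 5 lymphocyte markers was 32.9 CPM where the others had 4.33 to 13.3 CPM. The 5 stellate cell markers summed to 619 CPM in VDD2 and to 372 to 472 CPM in the others. The 7 hepatocyte markers matched summed to between 102421 and 118628 CPM in VDD-F1 and between 85908 and 107521 CPM in VDS-F1 mice, and the part of hepatocyte content in the Mup levels was not tested. Xist, which is transcribed in female cells, was under 2 CPM in all 12 libraries, and all 4 Y-linked genes examined were counted in 12 of them. Of 4 markers of kidney and secretory glands where Mup genes are also known to be transcribed, 3 had no count in any library and the 4 together reached at most 0.161 CPM.

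All 9 genes lie on the minus strand of chromosome 4 (GRCm38) within a cluster of 48 Mup genes that spans 2194 kb, from 59956804 to 62150863. Mup7 (60066469 to 60070475), Mup1 (60498012 to 60501960), Mup11 (60658466 to 60662411) and Mup12 (60737383 to 60741326) lie in the part of the cluster with the lower coordinates, and Mup17 (61591929 to 61595871) lies beyond its middle. Mup-ps20 (62012412 to 62014857), Mup20 (62050234 to 62054158), Mup3 (62083476 to 62087342) and Mup21 (62147932 to 62150863) lie near its upper end. The coding sequences of Mup1, Mup7, Mup11, Mup12 and Mup17 were 98.3% to 99.6% identical to each other. They were 90.1% to 91.3% identical to Mup20 and 82.3% to 84.7% identical to Mup3 and Mup21, which were 94.8% identical to each other.

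A stretch of 60 bases of the coding sequence in exon 3 is printed for the 8 coding genes, because it shows how few bases separate some of them. In Mup7 it covers chr4:60068915-60068974, in Mup20 chr4:62052650-62052709 and in Mup3 chr4:62085973-62086032. Capitals mark bases that differ from Mup7, and 20 of the 60 positions vary among the 8 genes.
Mup7: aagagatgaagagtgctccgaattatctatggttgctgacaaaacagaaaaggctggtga
Mup17: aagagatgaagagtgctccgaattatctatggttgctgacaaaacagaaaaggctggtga
Mup1: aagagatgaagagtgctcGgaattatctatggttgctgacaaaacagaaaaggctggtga
Mup11: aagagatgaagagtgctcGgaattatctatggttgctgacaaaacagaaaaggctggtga
Mup12: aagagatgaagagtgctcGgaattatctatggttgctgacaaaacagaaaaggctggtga
Mup20: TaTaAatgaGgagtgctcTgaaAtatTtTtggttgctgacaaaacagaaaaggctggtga
Mup3: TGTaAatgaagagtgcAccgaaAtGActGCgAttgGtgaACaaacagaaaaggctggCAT
Mup21: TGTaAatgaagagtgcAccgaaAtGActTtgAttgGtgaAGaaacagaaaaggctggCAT
Mup7 and Mup17 were identical over this stretch, and Mup1, Mup11 and Mup12 shared a single change from them. Mup20 differed from Mup7 at 8 positions, Mup21 at 16 and Mup3 at 17.

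Reads shared between the near-identical genes limit their values. Every 150-base window of the Mup3, Mup21 and Mup-ps20 transcripts was found in no other annotated gene. The share of such windows was 68.9% for Mup20 and 59.6% for Mup17. It was 47.5% for Mup1, 35.2% for Mup11, 32.9% for Mup7 and 24.1% for Mup12. Mup7 and Mup11 each shared a window of this length with 15 other genes, and Mup20 shared it with 1. The counts of Mup1, Mup7, Mup11, Mup12 and Mup17 therefore come from part of each transcript, since fragments that fit several places were left out. They may still include reads of their relatives, which was not tested. Mup3, Mup21 and Mup-ps20 can be told apart along their length.

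**Figure D1:**
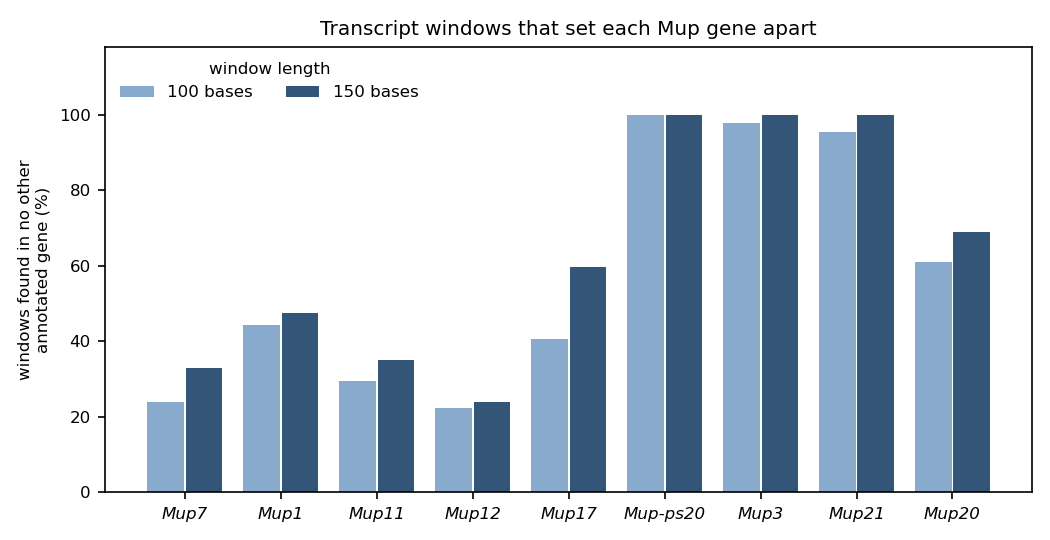
Share (%) of windows of 100 bases (light bars) and 150 bases (dark bars) of each Mup transcript that occur in no other annotated gene. Mup-ps20, Mup3 and Mup21 stand at or near 100%, and Mup12 and Mup7 have the lowest bars.

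Mup3 and Mup20 made up most of the counts. Per kilobase of exons, Mup3 had a mean of 5822 ± 717 CPM in VDS-F1 mice (SD, n = 6) and ranked above the other 8 genes in each of the 6 mice. Mup20 (1689 ± 1122 CPM per kilobase) and Mup7 (1003 ± 307) followed and changed places between mice. Below them came Mup21 with 578 ± 305, Mup17 with 213 ± 57.6 and Mup11 with 109 ± 38.7 CPM per kilobase. Mup12 (34.7 ± 12.7), Mup1 (28.6 ± 13.4) and Mup-ps20 (14.5 ± 8.28) were at the bottom, and their order differed from mouse to mouse. In VDD-F1 mice Mup3 (3038 ± 1354 CPM per kilobase) and Mup20 (1729 ± 143) again came before the rest, and Mup21 (232 ± 166) and Mup7 (128 ± 191) changed places between mice. For the genes that share reads these levels rest on part of the transcript.

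The 9 genes together took a median of 0.505% of the gene counts in VDD-F1 against 0.968% in VDS-F1 livers. The summed level lay between 2563 and 7939 CPM in VDD-F1 mice, with a mean of 5210 ± 1835 (SD, n = 6), and between 7578 and 13080 CPM in VDS-F1 mice, with a mean of 9665 ± 1969 (SD, n = 6). VDD1 was the only VDD-F1 mouse above the lowest VDS-F1 mouse, and VDD2 was the lowest of all 12. The log2 ratio of the group means after TMM scaling was -0.91. It was -0.93 in the 7 mice with a recorded liver weight and -1.01 in the 5 without. Leaving out VDD2 moved it to -0.75.

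**Figure D2:**
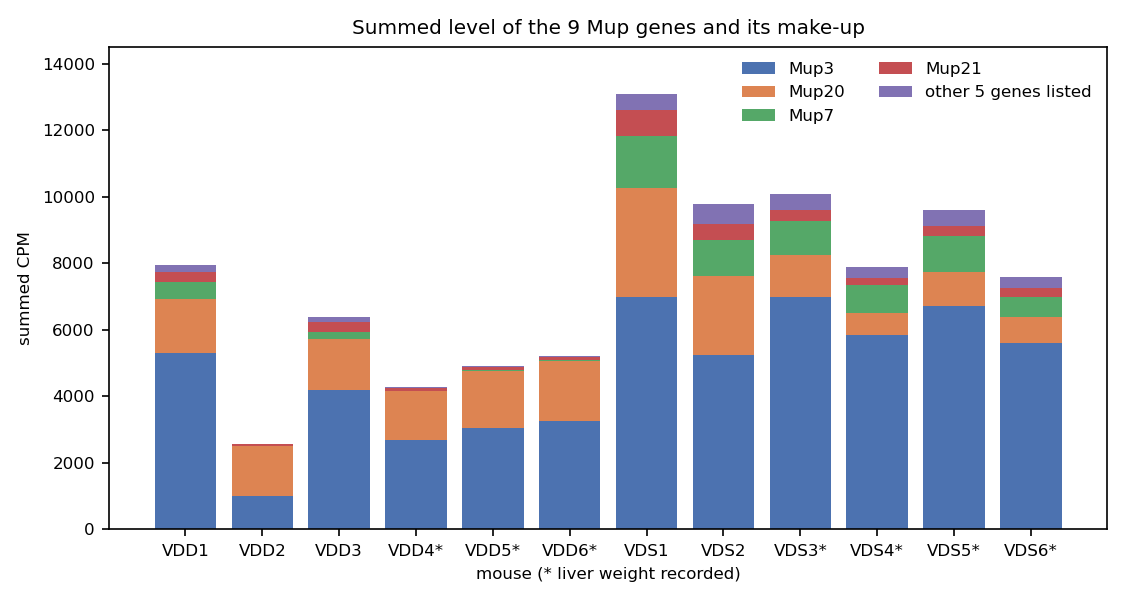
Stacked bars give the summed CPM of the 9 Mup genes in each of the 12 mice, with asterisks on mice whose liver weight was recorded. The bars of VDD-F1 mice end between 2563 and 7939 CPM and those of VDS-F1 mice between 7578 and 13080, while the Mup20 part is of like height in all 6 VDD-F1 mice.

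The comparison by diet asks whether maternal vitamin D deficiency was followed by different Mup transcript levels in the adult liver of the offspring. Mup1 and Mup12 were lower in VDD-F1 mice, and the other 7 genes did not pass the thresholds for a DEG, which were an adjusted p-value under 0.05 in edgeR's quasi-likelihood test and a log2-fold change beyond 1 in size. So 2 of the 9 genes were DEGs, both lower, where 0.0241% of the 12453 genes tested were lower DEGs. All 9 genes passed the filter on low counts. The log2-fold changes had a median of -2.46 over the 9 genes and 0.00 over all genes tested, and 8 of the 9 had an unadjusted p under 0.05 with a lower level in VDD-F1, as had 6.29% of all genes. All 6 VDD-F1 mice lay below all 6 VDS-F1 mice for 5 of the 9 genes (Mup1, Mup7, Mup11, Mup12 and Mup17), a pattern found for 0.458% of all genes. The Wald test of DESeq2, the package named in the study's methods, called 5 of the 9 genes (Mup1, Mup7, Mup11, Mup12 and Mup-ps20), all lower, against 0.281% of all genes called lower by that test.

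Mup1 and Mup12, which encode urinary proteins of the near-identical group, were both DEGs. Mup1 had 0.773 CPM at the lowest, 3.92 at the median and 11.8 at the highest among VDD-F1 mice, and 20.4, 47.8 and 68.2 CPM among VDS-F1 mice. The groups did not overlap, VDD1 being the VDD-F1 mouse nearest to the VDS-F1 mice and VDS1 and VDS2 the lowest of theirs. The log2-fold change of Mup1 was -3.32 (SE 0.49, edgeR adjusted p = 0.0269). Mup12 ranged from 0.892 through a median of 2.56 to 9.15 CPM in VDD-F1 mice, and from 16.2 through 31.3 to 48.5 CPM in VDS-F1 mice. Its groups did not overlap either, and VDD1 and VDS1 were again the mice closest to each other. Its log2-fold change was -3.17 (SE 0.46, edgeR adjusted p = 0.0269). Counts were low in the lowest library, VDD2, with 13 fragments on Mup1 and 15 on Mup12. Without VDD2 both genes remained DEGs, with log2-fold changes of -3.08 and -2.95 (edgeR adjusted p = 0.0227 for each). Both lost the call when any of VDD4, VDD5, VDD6, VDS3, VDS4, VDS5 or VDS6 was left out, with edgeR adjusted p-values of 0.0693 to 0.13, while the log2-fold changes stayed at -3.18 to -3.35 for Mup1 and -3.01 to -3.18 for Mup12.

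Mup7, Mup11 and Mup17 differed among VDD-F1 mice by more than the other 6 genes on a fold scale. Mup7 was at 501 CPM in VDD1 and 218 in VDD3, at 7.55 in VDD2, and at 16.2, 24.4 and 25.4 CPM in VDD4, VDD5 and VDD6. The VDS-F1 mice had 607 CPM at the lowest, 1045 at the median and 1563 at the highest. VDD1 and VDD3 lay below the lowest VDS-F1 mouse and the other 4 far below these 2, so the VDD-F1 group was itself divided. The summed cholangiocyte markers, of which 0 of 5 were at 0 in all libraries, followed the same division. They had 60.3 to 131 CPM in VDD2, VDD4, VDD5 and VDD6 against 23.7 and 36.1 CPM in VDD1 and VDD3. VDS-F1 mice had 28.1 to 49.7 CPM. The hepatocyte sum divided these VDD-F1 mice too, with 113372 to 118628 against 102421 and 108082 CPM. So did the endothelial sum (192 to 239 against 175 and 165 CPM) and the lymphocyte sum (10.2 to 32.9 against 9.91 and 4.33 CPM). The Kupffer cell and stellate cell sums did not. The part of these markers in the result was not tested. The log2-fold change of Mup7 was -2.95 (SE 0.88, edgeR adjusted p = 0.13).

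Mup11 and Mup17 were divided in the same way. Mup11 had 81.9 CPM in VDD1 and 55.3 in VDD3, 1.96 to 9.16 CPM in the other 4 VDD-F1 mice, and 107 to 262 CPM in VDS-F1 mice. Mup17 had 100.1 CPM in VDD1 and 96.2 in VDD3, 1.49 to 5.26 CPM in the other 4, and 128 to 268 CPM in VDS-F1 mice. For both genes the 2 higher VDD-F1 mice stayed below the lowest VDS-F1 mouse and well above the other 4. The log2-fold changes were -2.64 (SE 0.72, edgeR adjusted p = 0.112) for Mup11 and -2.46 (SE 0.91, edgeR adjusted p = 0.216) for Mup17. Without VDD1, Mup7 and Mup11 became DEGs, with log2-fold changes of -4.07 and -3.36 (edgeR adjusted p = 0.0196 and 0.0235). Mup17 did not, at -3.09 without VDD1 and -3.16 without VDD3 (edgeR adjusted p = 0.097 and 0.107).

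Mup-ps20 is annotated as an unprocessed pseudogene and had few counts, 9 to 204 fragments per library. It had 0.437, 0.974 and 4.51 CPM at the lowest, median and highest in VDD-F1 mice, and 3.21, 4.5 and 11.8 CPM in VDS-F1 mice. VDD1 lay among the VDS-F1 mice and the other 5 VDD-F1 mice below all of them. The log2-fold change was -2.01 (SE 0.53, edgeR adjusted p = 0.1). Without VDD1 it was -2.82 and passed the thresholds (edgeR adjusted p = 0.00534).

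Mup3 and Mup21, the pair that reads tell apart best among the coding genes, had smaller differences. Mup3 had 1003 CPM at the lowest, 3150 at the median and 5296 at the highest in VDD-F1 mice, and 5230, 6267 and 6989 CPM in VDS-F1 mice. Only VDD1 reached the VDS-F1 range. The log2-fold change of Mup3 was -0.95 (SE 0.30, edgeR adjusted p = 0.151). Mup21 had 51.4, 100.002 and 305 CPM at the lowest, median and highest in VDD-F1 mice, and 215, 309 and 772 CPM in VDS-F1 mice. VDD1 and VDD3 lay inside the VDS-F1 range and the other 4 VDD-F1 mice below it. The log2-fold change of Mup21 was -1.31 (SE 0.46, edgeR adjusted p = 0.196).

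Mup20, which encodes darcin, differed from the other 8 genes in its pattern across mice. It lay between 1452 and 1788 CPM in the 6 VDD-F1 mice and between 665 and 3293 CPM in the 6 VDS-F1 mice. VDS1 and VDS2 were above all VDD-F1 mice, and VDS3 to VDS6 below all of them. The group means were 1605 ± 133 and 1567 ± 1041 CPM (SD, n = 6 per group), and the log2-fold change was -0.01 (SE 0.33, edgeR adjusted p = 0.993). In VDD2, where the other 8 genes were at or near their lowest, Mup20 stood at 1495 CPM.

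**Figure D3:**
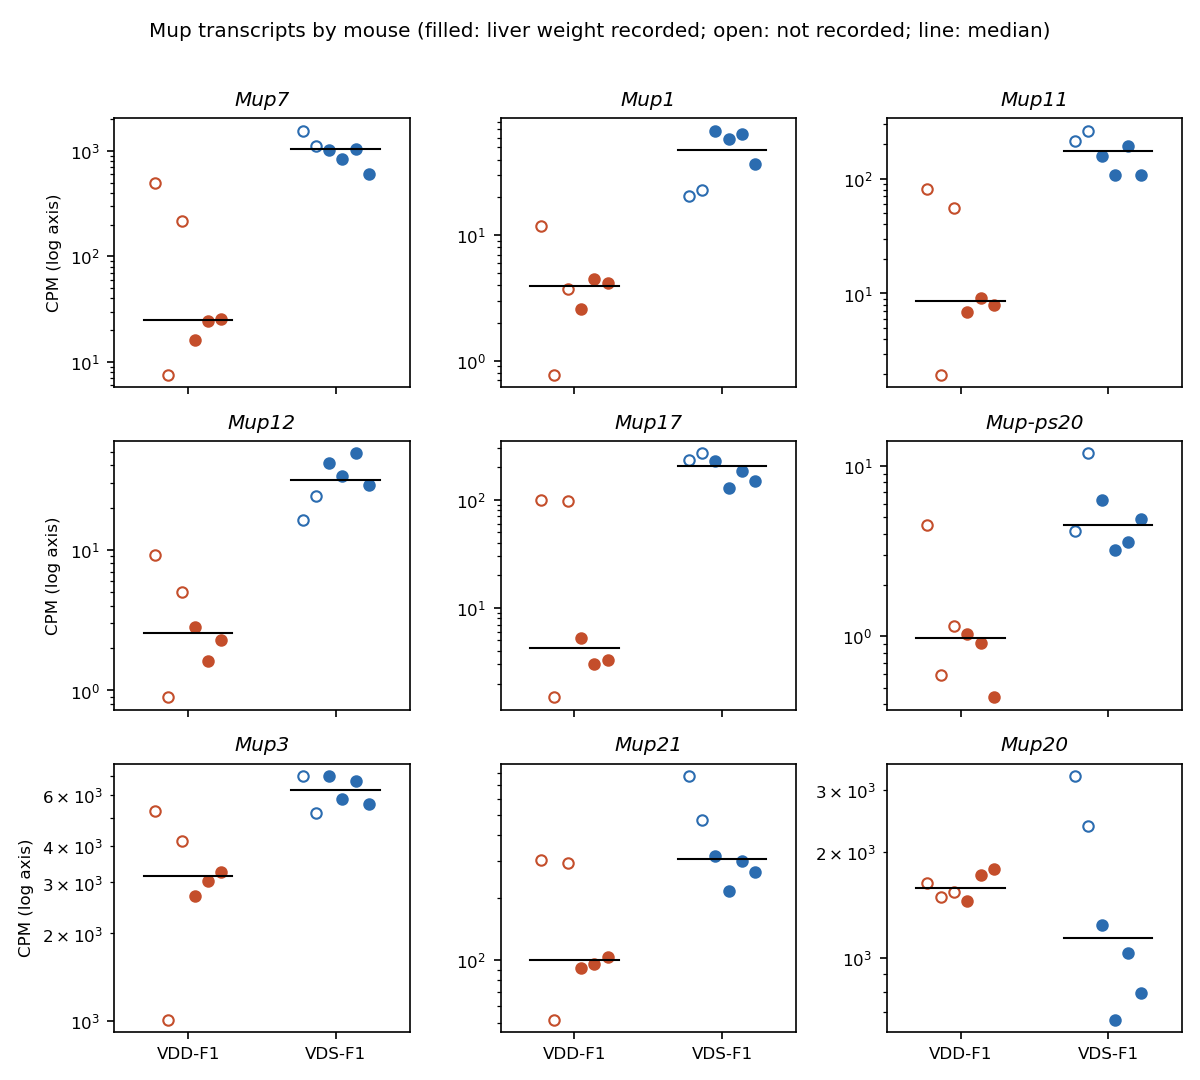
CPM of each Mup gene on a log axis in VDD-F1 (red) and VDS-F1 (blue) mice, filled where a liver weight was recorded and open where not, with a line at the group median. Mup7, Mup11 and Mup17 have VDD1 and VDD3 far above the other VDD-F1 mice, and Mup20 has the 2 open VDS-F1 points above and the 4 filled ones below all VDD-F1 points.

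The make-up of the family's RNA differed with these levels. Mup20 made up 20.5% to 58.3% of the summed level of the 9 genes in VDD-F1 mice and 8.44% to 25.2% in VDS-F1 mice. Mup7 made up 0.295% to 6.31% in VDD-F1 and 8.01% to 11.9% in VDS-F1 mice, with no overlap. Mup20 counts were 3.25 and 7.08 times those of Mup7 in VDD1 and VDD3, 70.4 to 198 times in the other 4 VDD-F1 mice, and 0.785 to 2.14 times in VDS-F1 mice. The ratio of Mup3 to Mup20 was 5.61 to 8.75 in VDS3 to VDS6 and 2.12 and 2.21 in VDS1 and VDS2, and 0.671 to 3.25 in VDD-F1 mice. Mup3 stayed the largest part in 11 of the 12 mice, the exception being VDD2, where it made up 39.1% and Mup20 58.3%.

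Among the 7 mice with a recorded liver weight, the diet groups were far apart for 8 of the 9 genes. Those 8 were lower DEGs in that set, where 1.26% of the 12369 genes tested were. The largest differences were those of Mup17, with a mean of 3.87 ± 1.21 CPM (SD, n = 3) among VDD-F1 against 172 ± 43.6 (SD, n = 4) among VDS-F1 mice, and of Mup7, with 22 ± 5.02 and 886 ± 208 CPM. Their log2-fold changes were -5.54 (SE 0.25, edgeR adjusted p = 3.4e-07) and -5.37 (SE 0.22, edgeR adjusted p = 1.9e-07). Mup3 had 2996 ± 289 and 6277 ± 677 CPM, a log2-fold change of -1.12 (SE 0.10, edgeR adjusted p = 3.9e-05). Mup20 went the other way, with 1654 ± 178 and 935 ± 258 CPM and a log2-fold change of 0.77 (SE 0.17, edgeR adjusted p = 0.0134), under the fold threshold for a DEG. Markers of other cell types also differed between the diet groups of this set. The 5 Kupffer cell markers summed to 74.2 to 123 CPM in VDD-F1 and 129 to 176 CPM in VDS-F1 mice, the cholangiocyte markers to 60.3 to 72.3 and 28.1 to 44.5 CPM, and the lymphocyte markers to 10.2 to 13.3 and 7.53 to 9.42 CPM, each with no overlap. The hepatocyte markers summed to 113372 to 118628 and 85908 to 98736 CPM, also with no overlap, while the endothelial markers (192 to 214 and 201 to 238 CPM) and the stellate cell markers (372 to 418 and 413 to 454 CPM) overlapped. No marker of these lists was at 0 in all libraries, and their part in the Mup differences was not tested.

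Among the 5 mice without a recorded liver weight, 0 of the 9 genes and 0.0% of the 12541 genes tested were lower DEGs with edgeR, and 2 of the 9 genes had an unadjusted p under 0.05 with a lower level in VDD-F1, as had 1.72% of all genes. The log2-fold changes of the 9 genes were all negative there, from -0.79 for Mup3 to -2.44 for Mup7, with standard errors up to 1.24. Mup20 had 1555 ± 68.9 CPM in VDD1 to VDD3 (SD, n = 3) and 2832 ± 652 CPM in VDS1 and VDS2 (SD, n = 2), a log2-fold change of -0.90 (SE 0.24). The set holds 3 and 2 mice, and VDD2 within it differed from VDD1 and VDD3 by more than these differed from the VDS-F1 mice for Mup7, Mup11 and Mup17 on the log scale.

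The difference between the sets was tested as an interaction of diet and set. The edgeR fit called 0 of the 9 genes and 0.0803% of all genes, and 5 of the 9 genes had an unadjusted p under 0.05, as had 9.01% of all genes. For Mup20 the diet difference was higher by 1.67 (log2, SE 0.30) in mice with a recorded liver weight, with an edgeR adjusted p of 0.0676 and a DESeq2 adjusted p of 4.7e-05. In the first set all 3 VDD-F1 mice were above all 4 VDS-F1 mice, and in the second all 3 were below both VDS-F1 mice. Leaving out 1 mouse at a time moved the edgeR adjusted p between 0.0136 and 0.348. Without VDD2, 6 of the 9 genes were called, Mup20 higher and Mup1, Mup7, Mup11, Mup12 and Mup17 lower, where 1.97% of all genes were called. The term was then -4.25 for Mup17 (SE 0.32, edgeR adjusted p = 3.3e-05) and -3.50 for Mup7 (SE 0.41, edgeR adjusted p = 0.000437).

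**Figure D4:**
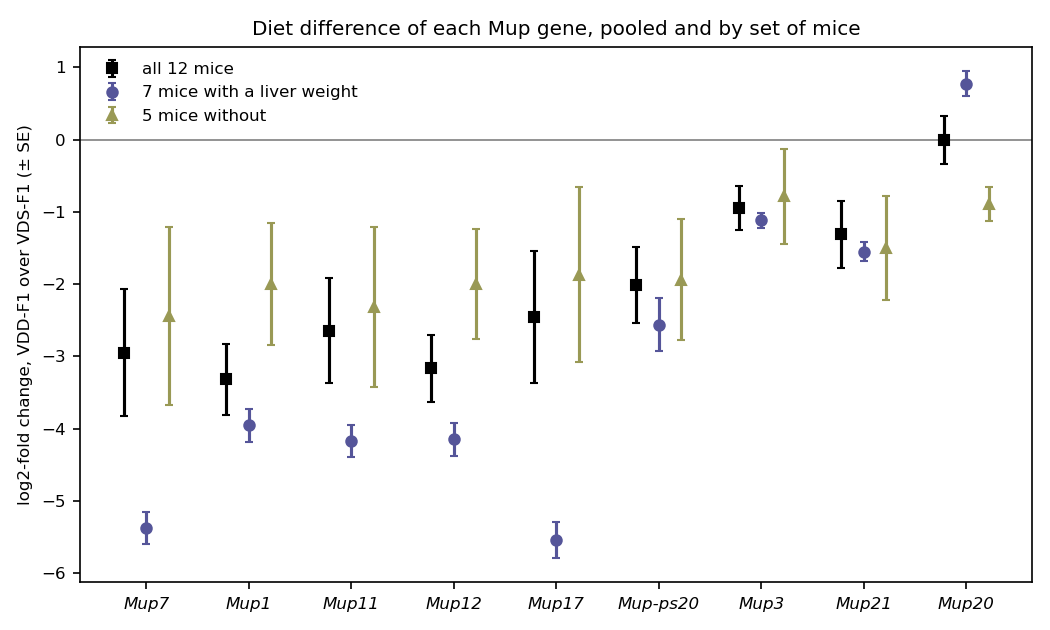
Log2-fold change of each Mup gene in VDD-F1 over VDS-F1 mice with its standard error, over all 12 mice (squares), in the 7 mice with a recorded liver weight (circles) and in the 5 without (triangles). The circles of Mup7 and Mup17 lie under -5, and Mup20 has its circle above 0 and its triangle below.

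With diet in the fit, 0 of the 9 genes were called between the sets with edgeR, where 0.891% of all genes were, and 6 of the 9 had an unadjusted p under 0.05, all lower in mice with a recorded liver weight, as had 7.99% of all genes in that direction. Mup21 had a log2 difference of -1.23 (SE 0.34, edgeR adjusted p = 0.0851) and Mup17 one of -2.53 (SE 0.91, edgeR adjusted p = 0.205). Within VDS-F1 mice Mup21 had 624 ± 210 CPM in the 2 mice without and 275 ± 45.7 in the 4 mice with a recorded weight (SD). Mup1 ran in the other direction within VDS-F1 mice, with 21.7 ± 1.84 and 57.0 ± 14.0 CPM. So did Mup12, with 16.2 and 24.1 CPM in VDS1 and VDS2 and 29.1 to 48.5 CPM in VDS3 to VDS6. Without VDD2, 4 genes were called between the sets (Mup7, Mup11, Mup17 and Mup21), where 1.44% of all genes were, and the term for Mup21 was -1.46 (SE 0.15, edgeR adjusted p = 0.00011). What else separates the sets was not tested.

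Of the other 40 Mup genes, 10 passed the filter on low counts and 0 were DEGs with edgeR, while 9 had an unadjusted p under 0.05 with a lower level in VDD-F1 (6.29% of all genes) and DESeq2 called 4 lower (0.281% of all genes). All 10 had negative log2-fold changes, with a median of -2.01, and in 6 of them all VDD-F1 mice lay below all VDS-F1 mice (0.458% of all genes). Mup14 had 69.0 ± 33.0 CPM in VDD-F1 against 224 ± 64.1 in VDS-F1 mice (SD, n = 6 per group), with a log2-fold change of -1.71 (SE 0.36, edgeR adjusted p = 0.0812). Mup15 had 54.8 and 58.6 CPM in VDD3 and VDD1, 0.951 to 2.52 CPM in the other 4 VDD-F1 mice, and 82.5 to 156 CPM in VDS-F1 mice. Mup22 had 51.2 ± 13.2 and 87.0 ± 14.8 CPM, a log2-fold change of -0.79 (SE 0.20, edgeR adjusted p = 0.0958). Mup15 shared the division of the VDD-F1 mice seen in Mup7, Mup11 and Mup17. The windows of Mup15 and Mup22 were rarely their own, 9.28% and 0% at 150 bases. Mup22 still had 14013 fragments over the 12 libraries, so single windows do not show which paired fragments were counted. Reads may be exchanged between these genes and their relatives, which was not tested.

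The nearest tested genes outside the cluster did not pass the thresholds for a DEG. Snx30, a sorting nexin, had 11.5 ± 2.30 CPM in VDD-F1 against 10.05 ± 2.34 in VDS-F1 mice (SD, n = 6 per group), with a log2-fold change of 0.14 (SE 0.17, edgeR adjusted p = 0.741). Slc31a2, a copper transporter, had 4.18 ± 1.85 and 4.02 ± 0.643 CPM, a log2-fold change of -0.02 (SE 0.23, edgeR adjusted p = 0.98).

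The genes most like the family in their pattern across mice were found by Pearson correlation of log2 CPM with the log2 summed level of the 9 genes over the 12 mice, among 12434 genes outside the family. They were Kmo (r = 0.965), which encodes the kynurenine monooxygenase of tryptophan breakdown, Lin7a (r = 0.954), a scaffold protein, Tedc2 (r = 0.952), a protein of tubulin complexes, the uncharacterized Gm35696 (r = 0.945) and Slc17a3 (r = 0.937), an organic anion transporter. The 12 points share their libraries and fall into both diet groups, and the 5 genes were picked as the highest of many. Kmo had 205 to 240 CPM in VDD-F1 mice and 224 to 267 CPM in VDS-F1 mice, so its range was far narrower than that of the Mup genes. Lin7a had 5.23 to 10.2 CPM and 11 to 14.3 CPM with no overlap. Gm35696 had 6.33 CPM in VDD1, 0.357 to 1.52 CPM in the other 5 VDD-F1 mice, and 5.73 to 8.06 CPM in VDS-F1 mice, which put VDD1 with the VDS-F1 mice.

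Genes of the hormonal control that maintains Mup transcripts were examined next. The hormone pathway list held 18 genes of growth hormone signalling and of transcription factors known to act on Mup genes, all tested, of which 0 were DEGs with edgeR or with DESeq2. Their log2-fold changes had a median of -0.06. An unadjusted p under 0.05 was found for 1 gene in each direction, where 6.29% of all genes were lower and 9.55% higher at that level, so the list was near the background. Socs3, a feedback inhibitor of cytokine receptors, had 17.4 CPM in VDD1 and 11 in VDD2, 3.59 to 6.36 CPM in the other 4 VDD-F1 mice and 3.85 to 5 CPM in VDS-F1 mice. Its log2-fold change was 0.82 (SE 0.32, edgeR adjusted p = 0.233). Hnf4a, a hepatocyte transcription factor, had 629 ± 76.8 and 748 ± 147 CPM (SD, n = 6 each, edgeR adjusted p = 0.301). In mice with a recorded liver weight Hnf4a had 533 to 717 CPM in VDD-F1 and 673 to 919 CPM in VDS-F1 mice. In mice without one it had 583 to 727 CPM in VDD-F1 and 561 and 626 CPM in VDS-F1 mice. Igfals, a carrier of Igf1, had 94.3 ± 16.8 and 116 ± 27.8 CPM (edgeR adjusted p = 0.323), and Ghr, the growth hormone receptor, had 479.8 ± 55.4 and 544 ± 49.5 CPM (edgeR adjusted p = 0.406).

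Of 20 genes that liver is known to transcribe more in males, 0 were DEGs with edgeR and 1 (Cyp7b1) was called lower by DESeq2, where 0.281% of all genes were. Negative log2-fold changes were found for 19 of the 20 and for 49.2% of all genes, the median of the list was -0.38, and 9 were lower with an unadjusted p under 0.05, as were 6.29% of all genes. Cyp7b1, an oxysterol hydroxylase, had 15.1 to 132 CPM in VDD-F1 against 142 to 323 CPM in VDS-F1 mice, with no overlap. Hsd3b5, a steroid dehydrogenase, had 2.91 to 100.5 and 148 to 217 CPM, also with no overlap. The lowest VDD-F1 mouse was VDD2 for both genes, and the log2-fold changes were -1.68 (SE 0.41, edgeR adjusted p = 0.0918) and -1.73 (SE 0.51, edgeR adjusted p = 0.125). Cyp2d9, a steroid hydroxylase, had 263 to 1200 CPM in VDD-F1 mice, highest in VDD3, and 971 to 1446 CPM in VDS-F1 mice (log2-fold change -0.99, SE 0.31, edgeR adjusted p = 0.144). Moxd1 had 0.00 to 4.39 CPM in VDD-F1 mice and 88.4 and 78.0 CPM in VDS1 and VDS2 against 1.07 to 1.68 CPM in the other 4 VDS-F1 mice, so it was highest in these 2 mice, as were Mup7, Mup11, Mup17, Mup20 and Mup21.

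Of 23 genes known to be higher in females, 9 were tested and 0 were DEGs with edgeR, with a median log2-fold change of 0.12 and 1 gene higher at an unadjusted p under 0.05, as were 9.55% of all genes. That gene was Cyp2a4, a steroid hydroxylase, with 26.3 to 46.0 CPM in VDD2, VDD4, VDD5 and VDD6 and at most 0.421 CPM in the other 8 mice. These 4 mice were those with the lowest Mup7, Mup11, Mup15 and Mup17. DESeq2 called Cyp2a4 (adjusted p = 0.000338) and edgeR gave an adjusted p of 0.0627. Cyp17a1, a steroid hydroxylase of the same list, was highest in the other VDD-F1 mice, with 61.8 and 52.1 CPM in VDD1 and VDD3 against 15 to 25.6 CPM in VDD2, VDD4, VDD5 and VDD6, and had 1.89 to 45.4 CPM in VDS-F1 mice. Prom1 had 1.41 ± 0.808 and 0.798 ± 0.329 CPM (SD, n = 6 per group), and Lifr had 314 ± 95.1 and 401 ± 112 CPM. The edgeR adjusted p-values of these 3 genes were 0.388 to 0.419.

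Of 11 lipocalins outside the cluster, which share the protein fold of the family, 8 were tested and 0 were DEGs with edgeR or DESeq2, 0 had an unadjusted p under 0.05, and the median log2-fold change was -0.23 with all 8 values negative. Orm1, an acute phase protein, had 371 ± 63.7 and 444 ± 109 CPM, and C8g, a chain of complement component 8, had 175 ± 21.4 and 190 ± 16.1 CPM (SD, n = 6 per group). Their edgeR adjusted p-values were 0.379 and 0.487. Orm2 had 8.46 ± 3.01 and 10.6 ± 4.33 CPM, and Obp2a, at most 3.22 CPM in any mouse, had a log2-fold change of -1.92 (SE 0.94, edgeR adjusted p = 0.341).

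**Figure D5:**
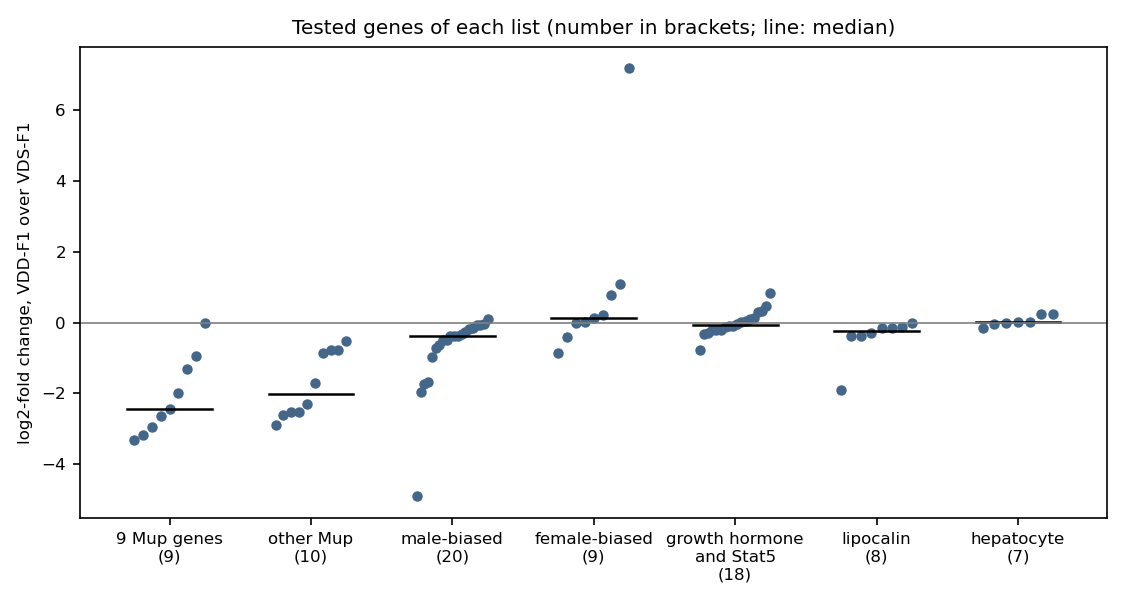
Log2-fold change in VDD-F1 over VDS-F1 mice of each tested gene in 7 lists, with the median as a line and the number of genes in brackets. The 9 Mup genes (median -2.46) and the other tested Mup genes (median -2.01) lie lowest, male-biased genes have a median of -0.38, and hepatocyte markers a median of 0.01.

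Promoter sequence was available for 5 of the 9 genes in the RefSeq table for GRCm38.p6, and 250 bases before the annotated start were read. They are shown for Mup3 and Mup11, which lie in different parts of the cluster, with TATATAA in capitals where it occurs. The windows are chr4:62087318-62087567 for Mup3 and chr4:60662396-60662645 for Mup11, both on the minus strand.
Mup3: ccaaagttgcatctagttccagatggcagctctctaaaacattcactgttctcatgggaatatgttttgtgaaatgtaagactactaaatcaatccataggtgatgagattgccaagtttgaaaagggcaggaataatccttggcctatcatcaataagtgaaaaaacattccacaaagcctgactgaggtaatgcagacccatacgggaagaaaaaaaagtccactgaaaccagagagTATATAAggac
Mup11: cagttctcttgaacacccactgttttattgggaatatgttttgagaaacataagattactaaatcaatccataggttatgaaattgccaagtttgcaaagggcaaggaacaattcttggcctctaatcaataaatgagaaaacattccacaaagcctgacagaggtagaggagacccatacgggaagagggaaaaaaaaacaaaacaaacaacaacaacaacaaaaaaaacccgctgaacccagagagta
The Mup3 window matched that of Mup21 at 92.3% of 247 aligned bases and that of Mup11 at 85.3% of 198. The windows of Mup11, Mup7 and Mup17 matched each other at 97.5% to 98.7% of aligned bases. These were 228 bases for Mup11 and Mup17, 144 for Mup7 and Mup11, and 121 for Mup7 and Mup17. The rest of each window was left out of the local alignment. The letters TATATAA occurred in 3 of the 5 windows (Mup3, Mup17 and Mup21) and in 3.04% of 32851 promoters of the same length. The core of the Stat5 motif, TTCNNNGAA, occurred in 0 of the 5 windows and in 7.02% of all promoters. Both strands were searched, and the motifs do not overlap each other. Annotated starts differ between annotations, so a window can end before or after the start in use.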

How the data were processed

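Raw fragment counts per gene were deposited by the authors, who trimmed the reads and aligned them to the mouse genome (mm10, GRCm38) with STAR, counting on GENCODE M15. The reverse-strand count of the 12 libraries (6 VDD-F1, 6 VDS-F1) was used here, since the kit keeps the strand. Symbols and positions came from GENCODE M21, which matched 52403 of 52636 gene IDs. Genes whose mean count fell under 12 were dropped. The diet groups were compared with edgeR 4.0.16 (TMM, quasi-likelihood test in the legacy form, Benjamini-Hochberg over 12453 genes, R 4.3.3). A DEG had a log2-fold change beyond 1 in size and an adjusted p below 0.05. CPM are counts over the library's gene counts, without TMM. Sets of mice follow the liver weights recorded in the study's supplement. Windows of 100 and 150 bases were searched in all 141767 annotated transcripts. Identities come from pairwise alignments with Biopython 1.88, global for coding sequences and local for promoters. The 60-base stretch was chosen from an alignment of the coding sequences with MAFFT 7.526. Alternatives were DESeq2 1.42.0, limma 3.58.1 (voom with sample weights), other scalings, filters and strand settings, the set as covariate, each set alone, a replicate block and each mouse left out. Those of the interaction, the set term and the window length were chosen after the data were seen.

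The members and lists were chosen with earlier results of these data known. Genes named are the 9 members, the 3 most abundant other Mup genes, up to 4 genes with the smallest p in each list, the 5 most alike and the nearest tested gene on each side of the cluster, besides those called. Protein sequences were not used here, and 1 gene of the hormone pathway list is not reported here. Replicate numbers name different mice. Pearson correlations across genes were 0.926 to 0.987 over all 66 pairs of libraries, and 0 pairs were identical.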

Additional observations from a re-analysis of the deposited data

Results flagged for a closer look

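Values far from the rest of their group of 6 were found in 3 cases of 20 groups examined by Dixon's ratio against its 95% critical value, a test that flags about 1 group in 20 by chance. Mup1 was at 11.8 CPM in VDD1, with a ratio of 0.662. Mup-ps20 was at 4.51 CPM in VDD1, with a ratio of 0.825. Mup-ps20 was also at 11.8 CPM in VDS2, with a ratio of 0.641.

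Mup20 drew attention because its diet difference ran in opposite directions in the 2 sets of mice, with no overlap of the diet groups in either. The interaction was 1.67 on the log2 scale, and its adjusted p was 0.0676 with edgeR, 4.7e-05 with DESeq2 and 0.0533 with limma.

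The forward-strand count, which no comparison used, held up to 770 fragments on the 9 genes. The highest count was in VDD5, where it made up 0.834% of the stranded counts on these genes. VDD1 and VDD4 had 0.254% and 0.231%. VDD2, VDD3 and VDD6 had 0.0348%, 0.0666% and 0.0542%, inside the range of the VDS-F1 mice, 0.0217% to 0.084%.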

How the results depend on the processing

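The diet calls moved with the test, with single mice and with the set of mice. Of all genes, 5 were DEGs, against 253 with DESeq2, 252 with voom, 17 in edgeR's newer form, 70 without a filter, 21 with the set as covariate, 536 in mice with and 0 in mice without a recorded liver weight, and 0 to 260 with 1 mouse left out. Of the 9 Mup genes, 2 were DEGs, against 5 with DESeq2, 8 with voom, 8 in mice with and 0 in mice without a recorded weight, and 0 to 5 with 1 mouse left out. Of the other Mup genes, 0 were DEGs, against 4 with DESeq2, 6 with voom, 2 in the newer form, 4 without a filter, 3 with the covariate, 6 in mice with a recorded weight and 0 to 5 with 1 mouse left out. Male-biased DEGs were 0, against 1 with DESeq2, 4 with voom, 1 without a filter, 1 with the covariate, 5 in mice with a recorded weight and 0 to 2 with 1 mouse left out. Female-biased DEGs were 0, against 1 with DESeq2, the newer form, no filter and the covariate, 2 in mice with a recorded weight and 0 to 1 with 1 mouse left out. The hormone pathway list and the other lipocalins had 0 DEGs in each alternative. The interaction called 0 members, against 1 with DESeq2 and 0 to 6 with 1 mouse left out, and the set term 0, against 2 with DESeq2 and 0 to 4. The share of all genes that DESeq2 called for these 2 terms was not counted, so its calls there have no background beside them. The summed level had a log2 ratio of -0.75 to -1.07 with 1 mouse left out. The cause of these shifts was not tested.

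Replicate numbers did not pair the mice: deviations of same-numbered mice correlated at -0.0762 to 0.103 over 6 pairs, and 0 of 12 correlated best with their own number. With the replicate block there were 17 DEGs, of which 2 were members, 1 another Mup gene, 1 male-biased and 1 female-biased.

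Directions turned for Mup20, with a log2-fold change of 0.48 with voom, 0.0793 with the covariate, 0.77 in mice with a recorded weight, 0.25 with the block, and -0.17 to 0.36 with 1 mouse left out. They also turned in mice without a recorded weight for Hnf4a (0.0708), and for Slc31a2 with voom (0.0075), in mice with a recorded weight (0.0415) and with 1 mouse left out (-0.22 to 0.0891). The other 8 members kept negative values in all 23 alternatives. DESeq2's size factors, the count ignoring strand and a mean count of at least 1 left the number of members called at 2. Reads left out as multimapping, which depth cannot recover, limit the levels of Mup1, Mup7, Mup11, Mup12 and Mup17.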
